A study of Mus musculus with 6 samples.

Results

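Interleukin-1 (IL-1) family genes were examined in mouse osteoclast precursors at an early stage of osteoclastogenesis (OCG). The 4 genes were Il1a, the agonist IL-1 alpha, Il1rn, the IL-1 receptor antagonist, Il1r1, the type I receptor that both proteins bind, and Il1rl2, the receptor for the IL-36 cytokines. They were selected on the measured difference between the groups. A probe set has a gene name only if it is on the authors' deposited list of changed probe sets. That list was limited by p-value as well as to differences of at least 2-fold. Of the 522 genes with a name 4 were taken, each with 1 probe set. The values that chose them are therefore the values described here, and the differences between the groups are given without a test. Expression was measured on 6 Affymetrix Mouse Gene 1.0 ST arrays, as intensities that the authors normalised by RMA and filtered before deposit. The 2859 rows compared are 1 probe set for each named gene and every probe set without a name. In each of 3 independent experiments, bone marrow cells of 3 wild-type SV129/BL6 mice were pooled, and an enriched, not pure, population of mononuclear precursors was split into 2 dishes. One dish received M-CSF (20 ng/ml) with sRANKL (200 ng/ml), and its partner received M-CSF (20 ng/ml) alone. RNA was extracted after 2 days. All cells had been kept for 48 hours in 10 ng/ml M-CSF beforehand, and the sRANKL was purified from a construct in a bacterial expression vector. Wild-type mice of this strain used for bone marrow cultures were 6 to 12 weeks old, and no age is given for the array pools in particular. The replicate is a pool of mice, and n is 3 per group.

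IL-1 alpha binds the type I receptor, which then recruits the accessory protein Il1rap and signals through Myd88 and the Irak kinases to NF-kB. The receptor antagonist occupies the same receptor without recruiting the accessory protein, so it blocks the agonist. IL-36 cytokines use Il1rl2 with the same accessory protein. RANKL, which directs macrophage precursors toward osteoclasts, also signals to NF-kB through its own receptor, and IL-1 is known to promote osteoclast formation and bone resorption.

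All 4 genes were higher with M-CSF and sRANKL than with M-CSF alone, in each of the 3 experiments. The mean difference was 10.1-fold for Il1a and 8.13-fold for Il1rn, and it was smaller for the receptors, at 2.59-fold for Il1r1 and 2.48-fold for Il1rl2. For every one of the 4 the lowest array with sRANKL was brighter than the highest array with M-CSF alone. Of all 2859 rows tested, 45.2% were higher with sRANKL without overlap between the groups, and 44.9% were higher at an adjusted p under 0.05 in unpaired limma. The selection of the genes fixed this outcome, so nothing is read from it. Among the rows on the authors' list, the lowest difference in either direction was 2.00-fold, and 252 rows off the list also differed at least 2-fold. The gene of the 4 nearest to that limit was Il1rl2 at 2.48-fold.

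The promoters of the 4 genes are shown as a description. The selection of the genes fixed that they were higher together, so no shared control is read from it. Each sequence is the 250 bases before a start site in the RefSeq promoter table of GRCm38.p6, written 5′ to 3′ on the gene's strand. Of several start sites, the first is shown for Il1rn and the one with an NF-kB match for Il1r1. Capitals mark matches, on either strand, to 4 motifs: the AP-1 site TGANTCA, the NF-kB consensus, the C/EBP site TTNNGCAA and the TATA box TATAAA. In the same window a match was found in 6.75%, 3.9%, 9.56% and 12.4% of all 32851 promoters in the table.
Il1a, chr2:129309973-129310222, minus strand: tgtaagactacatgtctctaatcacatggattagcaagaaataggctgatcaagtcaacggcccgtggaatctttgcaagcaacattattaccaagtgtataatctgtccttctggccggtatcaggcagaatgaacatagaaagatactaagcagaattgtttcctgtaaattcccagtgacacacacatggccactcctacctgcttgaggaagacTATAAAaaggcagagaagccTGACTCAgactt
Il1rn, chr2:24336610-24336859, plus strand: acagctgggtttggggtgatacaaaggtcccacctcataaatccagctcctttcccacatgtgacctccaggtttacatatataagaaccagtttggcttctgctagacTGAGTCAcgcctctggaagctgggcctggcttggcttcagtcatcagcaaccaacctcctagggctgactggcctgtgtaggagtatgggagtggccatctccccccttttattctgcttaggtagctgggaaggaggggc
Il1r1, chr1:40266336-40266585, plus strand: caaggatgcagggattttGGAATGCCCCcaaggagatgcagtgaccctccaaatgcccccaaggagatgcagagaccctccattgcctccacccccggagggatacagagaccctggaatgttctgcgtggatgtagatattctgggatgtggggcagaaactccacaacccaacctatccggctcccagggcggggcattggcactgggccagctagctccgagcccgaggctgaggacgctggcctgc
Il1rl2, chr1:40324339-40324588, plus strand: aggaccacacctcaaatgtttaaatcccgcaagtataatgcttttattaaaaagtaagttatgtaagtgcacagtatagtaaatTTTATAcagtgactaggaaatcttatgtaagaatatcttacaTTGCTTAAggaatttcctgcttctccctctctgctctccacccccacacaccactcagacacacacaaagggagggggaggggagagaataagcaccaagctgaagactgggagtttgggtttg
An AP-1 match lay in the Il1a promoter, from 12 to 6 bases before the start, and in the Il1rn promoter, from 141 to 135 bases before it. The Il1a window also held a TATA box match, from 32 to 27 bases before the start. The NF-kB consensus was matched once, in the shown Il1r1 promoter, from 232 to 223 bases before the start. The Il1rl2 window held a C/EBP match and a TATA box match, both on the opposite strand. A second start site of Il1r1 had only a C/EBP match, and the other 2 start sites of Il1rn had no match to any of the 4 motifs. A match describes letters and shows no binding, and a window without a match says nothing of the factor.

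Il1a encodes a cytokine that acts both as a secreted protein and from the cell surface. The authors' list places it on the minus strand of chromosome 2, between 129125345 and 129135708, without naming a genome build. Its intensity after RMA was 765.2, 369.3 and 168.2 in Experiments 1, 2 and 3 with M-CSF and sRANKL, against 87.3, 23.5 and 22.7 with M-CSF alone. The arrays of Experiment 1 were the brightest of both groups, while the groups did not overlap. On the log2 scale the mean was 8.50 ± 1.09 with sRANKL, against 5.17 ± 1.11 with M-CSF alone (SD, n = 3 each). Within experiments Il1a was 8.77-fold, 15.7-fold and 7.43-fold higher with sRANKL. The mean log2 difference was 3.33 ± 0.57 (SD over 3 experiments).
Of the arrays left out singly, the M-CSF alone array of Experiment 1 moved the difference most, to 15.7-fold from 10.1-fold. Its partner dish, the brightest with sRANKL, was kept in that value, so the pairing was broken. Between the 2 partner dishes of Experiment 1 the difference was 8.77-fold. On the M-CSF alone arrays of Experiments 2 and 3, only 8 and 4 of the 2859 rows were dimmer than Il1a. The files hold no detection calls, so whether these arrays detected Il1a above background is unknown, and a fold against so dim a value is imprecise.

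Il1rn encodes the antagonist, in a secreted form and in forms that stay in the cell. The single probe set does not tell these forms apart here. The gene lies on chromosome 2 from 24192379 to 24207005 on the plus strand, 104.9 Mb from Il1a in the coordinates of the list. Its intensity was 1423, 1134 and 1165 in Experiments 1, 2 and 3 with M-CSF and sRANKL, against 179.3, 134.0 and 145.4 with M-CSF alone. The dimmest array with sRANKL was thus well above the brightest array with M-CSF alone. On the log2 scale the mean was 10.27 ± 0.18 with sRANKL, against 7.25 ± 0.22 with M-CSF alone (SD, n = 3 each). Il1rn was 7.93-fold, 8.46-fold and 8.01-fold higher within experiments, a mean log2 difference of 3.02 ± 0.05 (SD over 3 experiments).

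**Figure D1:**
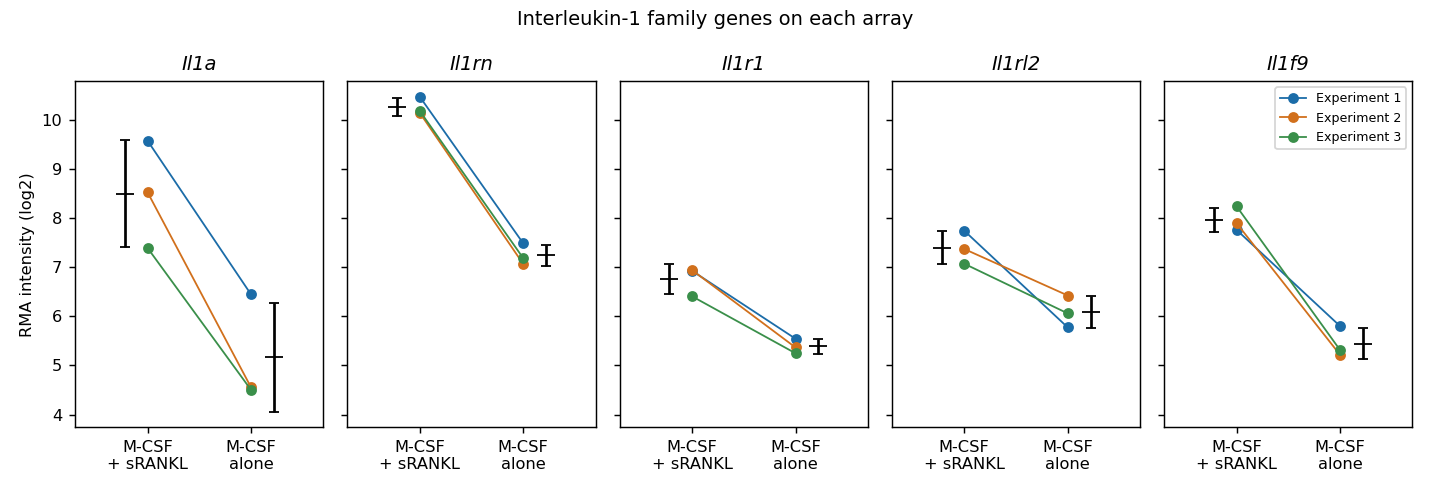
RMA intensity (log2) of Il1a, Il1rn, Il1r1, Il1rl2 and Il1f9 on each of the 6 arrays, with partner dishes of an experiment joined by a line and the mean ± SD (n = 3) in black beside each group. In each panel the arrays with sRANKL lie above those with M-CSF alone, and the points of Il1a are spread widely in both groups, with an SD of 1.09 with sRANKL and 1.11 with M-CSF alone.

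The agonist and the antagonist thus differed in how even their levels and differences were between pools of mice. The SD between arrays of a group, pooled over both groups, was 1.10 on the log2 scale for Il1a and 0.20 for Il1rn, against a median of 0.23 over all rows. By this SD Il1a ranked 13 of 2859 rows, counted from the widest, and Il1rn ranked 1757. The SD of the 3 experiment differences was 0.57 for Il1a and 0.05 for Il1rn, against a median of 0.22 over all rows. Only 3.71% of rows had a smaller SD of differences than Il1rn, and 95.6% had a smaller one than Il1a. The median log2 difference of all rows was 0.42, so these shares do not compare the genes with others of like fold. The SD of differences was 0.21 for Il1r1 and 0.57 for Il1rl2, so by this measure Il1a did not stand apart from Il1rl2. Because the selection of the genes also used the spread within groups, these ranks are a description.
The log2 difference of Il1a minus that of Il1rn was 0.14, 0.89 and -0.11 in Experiments 1, 2 and 3, with a mean of 0.31 ± 0.52 (SD over 3 experiments). The sign was not the same in all experiments, and the mean was smaller than its spread. The fold differences of agonist and antagonist could therefore not be ordered with 3 experiments. Intensities of different probe sets depend on their probes, so the amount of agonist was not set against that of antagonist.

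Il1r1 and Il1rl2 are neighbours on chromosome 1. In the authors' list Il1r1 runs from 40281925 to 40373022 and Il1rl2 from 40381475 to 40432623, both on the plus strand, with 8453 bases between their listed limits. Il1r1, the signalling receptor for IL-1, had an intensity of 121.8, 123.1 and 85.0 in Experiments 1, 2 and 3 with M-CSF and sRANKL, against 46.7, 41.3 and 38.0 with M-CSF alone. The groups did not overlap, and between 23 and 28 rows were dimmer than Il1r1 on each of the M-CSF alone arrays. It was 2.61-fold, 2.98-fold and 2.24-fold higher within experiments, a mean log2 difference of 1.37 ± 0.21 (SD over 3 experiments).
Il1rl2, the IL-36 receptor, had an intensity of 214.5, 165.8 and 134.6 in Experiments 1, 2 and 3 with M-CSF and sRANKL, against 54.7, 86.0 and 66.7 with M-CSF alone. On the M-CSF alone arrays, between 55 and 160 rows were dimmer. Experiment 1 had the brightest array with sRANKL and the dimmest with M-CSF alone. The difference was accordingly 3.92-fold in Experiment 1, against 1.93-fold and 2.02-fold in Experiments 2 and 3. The mean log2 difference was 1.31 ± 0.57 (SD over 3 experiments), and 95.7% of rows had a smaller SD of differences. Il1r1 minus Il1rl2 averaged 0.06 ± 0.61 on the log2 scale, with both signs among the 3 experiments.

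In each experiment Il1a and Il1rn each had a larger measured fold difference than either receptor. With M-CSF alone both receptors were dim, with only 23 to 28 rows dimmer than Il1r1 and 55 to 160 dimmer than Il1rl2. Whether either receptor was detected above background there is unknown, so their folds and the excesses of Il1a and Il1rn over them are imprecise. The log2 difference of Il1rn exceeded that of Il1r1 by 1.60, 1.50 and 1.84 in Experiments 1, 2 and 3, and that of Il1rl2 by 1.02, 2.13 and 1.99. For Il1a the excess was 1.75, 2.40 and 1.73 over Il1r1, and 1.16, 3.03 and 1.88 over Il1rl2. By mean fold, Il1a ranked 16 and Il1rn 26 among the 522 named genes, and Il1r1 ranked 177 and Il1rl2 ranked 196. All of the 341 named genes that were higher share this selection. Their median log2 difference was 1.39, close to the receptors and below Il1a and Il1rn. The SD between arrays of a group was 0.24 for Il1r1 and 0.33 for Il1rl2 on the log2 scale.

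**Figure D2:**
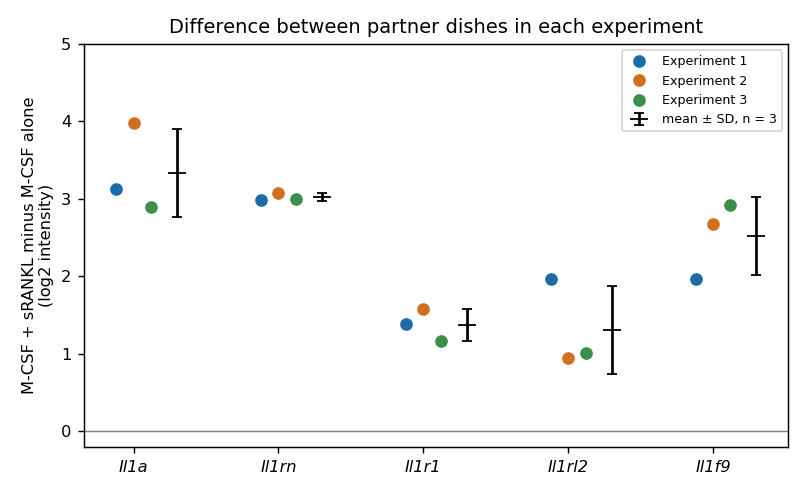
Log2 intensity with M-CSF and sRANKL minus that with M-CSF alone, for the partner dishes of each experiment, with the mean ± SD (n = 3) in black. The 3 points of Il1rn lie together at a mean of 3.02, those of Il1a spread around 3.33, and both receptors lie below them at 1.37 and 1.31.

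**Figure D3:**
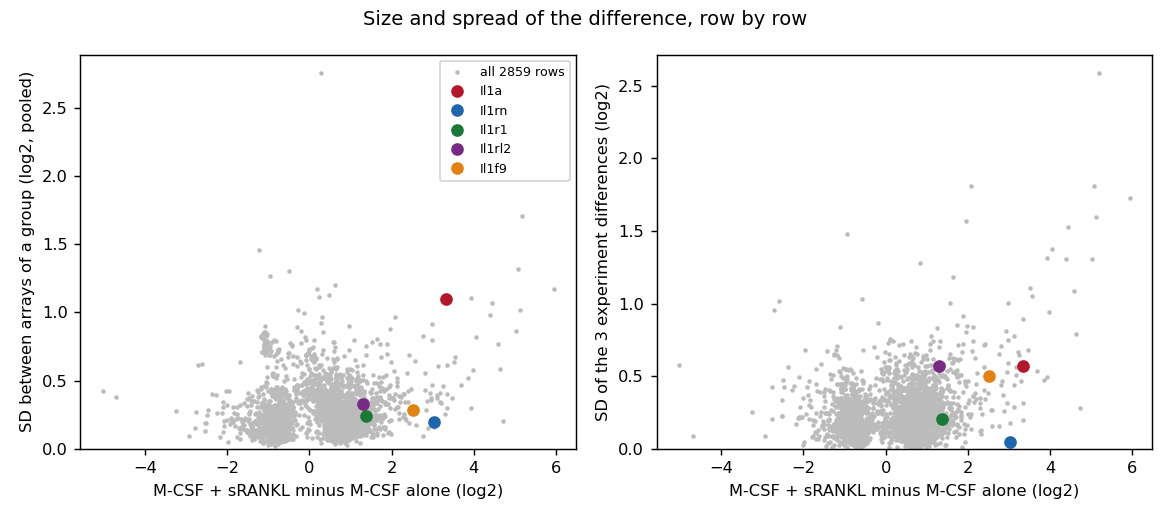
Log2 difference between the groups (x axis) against the SD between arrays of a group (left) and the SD of the 3 experiment differences (right), for 2859 rows in grey and the IL-1 family genes in colour. Il1a stands high in the left panel with an SD of 1.10, and Il1rn sits near the bottom of the right panel at 0.05.

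A list of 11 IL-1 family ligands was also examined, 10 of which are mouse genes in the RefSeq table, and 3 are named in the files. Beside Il1a and Il1rn the third was Il1f9, also called Il36g, which encodes IL-36 gamma, an agonist of Il1rl2. It lies on chromosome 2 from 24042002 to 24049087, ahead of Il1rn in the same stretch of the chromosome. Its intensity was 217.4, 238.9 and 303.2 in Experiments 1, 2 and 3 with M-CSF and sRANKL, against 55.8, 37.2 and 39.8 with M-CSF alone. The groups did not overlap. On the M-CSF alone arrays of Experiments 1, 2 and 3 only 59, 21 and 27 rows were dimmer, so these folds too are against a value that may not be above background. It was 3.89-fold, 6.42-fold and 7.61-fold higher within experiments, and 5.75-fold on average, with a mean log2 difference of 2.52 ± 0.50 (SD over 3 experiments). Experiment 1, in which its receptor Il1rl2 had the largest difference, gave the smallest for Il1f9. There Il1f9 was 3.89-fold higher and Il1rl2 3.92-fold, so Il1f9 exceeded its receptor only in Experiments 2 and 3. The promoter of Il1f9 held none of the 4 motifs.
Of 11 listed receptors and binding proteins, Il1r1 and Il1rl2 are the 2 that are named. The other listed ligands and receptors, among them Il1b, Il18, Il33, the decoy receptor Il1r2 and the accessory protein Il1rap, have no named probe set and were not analysed here.

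Of 20 listed genes that carry or restrain the signal of the receptor, 1 is named. This was Irak3, also called IRAK-M, an inhibitor of IL-1 and Toll-like receptor signalling in macrophages. Its intensity was 1761, 1953 and 1872 in Experiments 1, 2 and 3 with M-CSF and sRANKL, against 836.0, 711.4 and 736.7 with M-CSF alone, which is 2.45-fold higher with sRANKL. Of 18 listed genes for maturation and release of IL-1, 1 is named. It was Mefv, which encodes the inflammasome protein pyrin, at 225.2, 331.2 and 303.8 with sRANKL, against 95.8, 72.1 and 76.5 with M-CSF alone, 3.50-fold higher. Both genes were without overlap between the groups. They too are named only because they are on the authors' list.
Of 24 listed NF-kB targets that IL-1 can induce, 14 are named, and all 14 were higher with sRANKL, with a median log2 difference of 2.26. For comparison, 341 of the 522 named genes were higher, and the median log2 difference of those was 1.39. The list was chosen with earlier results of these data known, so no enrichment is read from these numbers. RANKL can also induce such genes through its own receptor, and the 2 routes cannot be told apart here. The largest differences were in the monocyte chemokine gene Ccl7 at 24.9-fold, the matrix protease gene Mmp9 at 15.8-fold and Ccl2, another monocyte chemokine gene, at 9.06-fold. Among the other targets, Il6, Tnf and Ptgs2, which encode 2 cytokines and an enzyme of prostaglandin synthesis, were 7.90-fold, 3.56-fold and 5.94-fold higher. The feedback genes Tnfaip3, Nfkbia and Nfkbiz were 2.62-fold, 2.00-fold and 2.37-fold higher. The remaining 5 were the neutrophil chemokine genes Cxcl1, Cxcl2 and Cxcl5, the signalling adaptor gene Traf1 and Sod2, which encodes the mitochondrial superoxide dismutase, and they were between 3.41-fold and 6.99-fold higher.

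**Figure D4:**
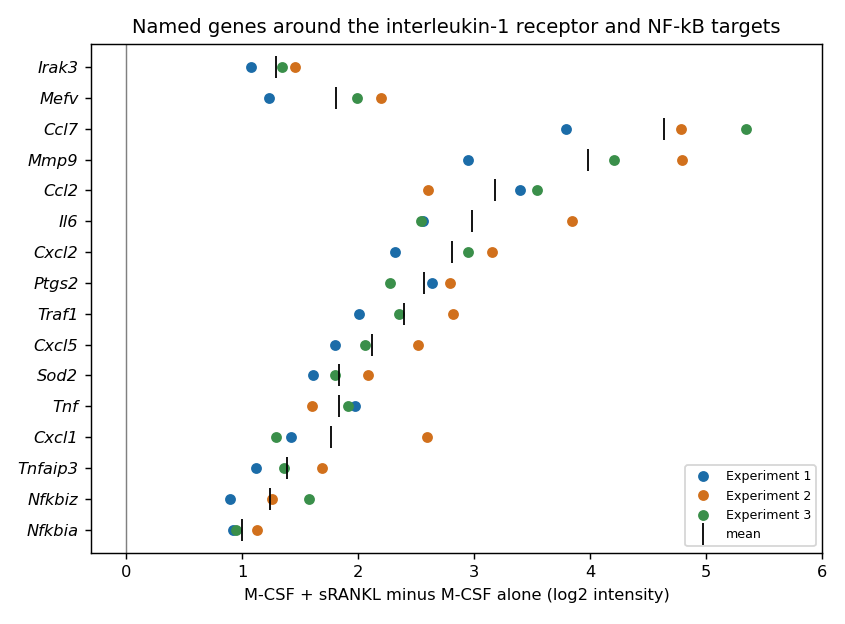
Log2 intensity with M-CSF and sRANKL minus that with M-CSF alone for the named genes of 3 lists, with a point for each experiment and a black tick at the mean. Irak3 and Mefv stand above the 14 NF-kB targets, which run in order of their mean from Ccl7 at 4.64 to Nfkbia at 1.00, and no point lies below 0.

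The M-CSF alone array of Experiment 1 stood apart for the IL-1 family genes and for most other named genes of the lists. Among the M-CSF alone arrays it was the brightest for Il1a, Il1rn, Il1r1 and Il1f9 and the dimmest for Il1rl2. It was the brightest for 11 of the 14 NF-kB targets, against 26.0% of all rows and 40.8% of the named genes that were higher. Among the cell type markers it was likewise the brightest for 5 of 6 osteoclast markers, 6 of 7 neutrophil and granulocyte precursor markers, both stromal markers and Ccl5. It was the brightest for 2 of 3 dendritic cell markers and the dimmest for the monocyte and macrophage marker Ccr2. The part of these cells in the levels on that array was not tested. Without this array the difference was 8.84-fold for Il1rn, 2.74-fold for Il1r1, 2.23-fold for Il1rl2 and 6.51-fold for Il1f9. Its partner dish was kept in these values, so they do not follow the pairing. That partner was the brightest array with sRANKL for Il1a, Il1rn and Il1rl2, and not for Il1r1 or Il1f9.

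For each gene the 3 other named genes with the most similar profile were found, by the root mean square distance of log2 intensities over the 6 arrays after each gene was centred on its mean. Nearest to Il1a were the chemokine gene Ccl5 at 0.54, Il6 at 0.57 and Lox, lysyl oxidase, at 0.60. These genes were between 7.90-fold and 12.9-fold higher with sRANKL, and their distances were larger than those of the genes nearest to the other 3. Nearest to Il1rn were the stefin gene Stfa1 at 0.21, Gpr84, a G protein-coupled receptor of myeloid cells, at 0.22 and the cystine transporter gene Slc7a11 at 0.23. Il1r1 had close neighbours, with Asb2, a subunit of a ubiquitin ligase, at 0.04, the chemokine gene Ccl3 at 0.08 and the small GTPase gene Rab20 at 0.09. For Il1rl2 they were the sulfotransferase gene Chst11 at 0.13, the Notch ligand gene Jag1 at 0.14 and the formyl peptide receptor gene Fpr3 at 0.15. Within the family the receptors lay 0.27 apart, and Il1a and Il1rn lay 0.78 apart. The distance takes in both the difference between the groups and the spread within them, and the points share arrays and pools.

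Markers of osteoclasts and of other cells that such a culture can hold were counted among the named genes. A marker too has a name only if it is on the authors' list of changed probe sets, so each marker seen had to differ, and 341 of all 522 named genes were higher. Markers without a named probe set were not analysed here, so these counts do not describe a cell type as a whole. Neutrophil and granulocyte precursor genes were represented by 7 named markers of 18 on their list, namely Mpo, Ctsg, Prtn3, Stfa1, Stfa2, Stfa2l1 and Cstdc5. All 7 were higher, with a summed intensity of 6512 to 10177 on arrays with sRANKL and 1558 to 2452 with M-CSF alone. Both of the named stromal markers of 10 listed, Dcn and Lox, were higher, with a summed intensity of 550.2 to 858.5 with sRANKL and 81.3 to 132.4 with M-CSF alone. Of 12 osteoclast markers 6 are named, namely Mmp9, Acp5, Ctsk, Atp6v0d2, Car2 and Itgb3. All 6 were higher, with a summed intensity of 5391 to 7376 with sRANKL and 610.2 to 977.0 with M-CSF alone. The only named marker of 8 for T and NK cells, Ccl5, was higher, at 1692 to 3616 with sRANKL and 173.6 to 422.9 with M-CSF alone. Of 10 dendritic cell markers 3 are named, with Ccr7 higher and Cd209a and H2-Eb1 lower. Their summed intensity was 1846 to 3105 with sRANKL and 4598 to 5618 with M-CSF alone. Most of that sum was H2-Eb1 on every array, so it does not show the rise of Ccr7. The only named marker of 12 for monocytes and macrophages, Ccr2, was lower, at 1597 to 2363 with sRANKL and 3518 to 4317 with M-CSF alone. No listed marker of B cells, of mast cells and basophils, or of erythroid cells is named. Neutrophils and stromal cells also express IL-1 family genes, and the part of these cells in the differences was not tested. In bulk RNA, more cells of a type and more RNA per cell cannot be told apart.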

How the data were processed

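The authors deposited linear RMA intensities for 2890 probe sets, 1 column per array. RMA corrects the background, equalises the arrays by quantiles and summarises probes, and was run in R 2.71 per the submitters' processing notes. How the probe sets were selected is not described in the sources used here. The label of the authors' list holds short terms that may stand for a limit on spread and a limit on low intensity. It does not explain them or say whether they were applied to these probe sets. A second deposited table, the authors' list of 656 changed probe sets, holds their group means, fold changes and p-values, which were not used, and gene coordinates. That list supplied the gene names, for 553 probe sets, with symbols updated through the Entrez number against RefSeq (GRCm38.p6), where 547 had an entry and 62 had a newer symbol. Most probe sets therefore have no name here. Columns were assigned to samples by the sample descriptions.

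Per named gene the probe set with the highest mean log2 over the 6 arrays was kept, leaving 2859 rows, with median log2 intensities between 8.15 and 8.54 on the 6 arrays. Log2 intensities were fitted with limma 3.58.1 in R 4.3.3, taking M-CSF alone from M-CSF + sRANKL, with Benjamini-Hochberg adjustment over all rows and a threshold of 0.05. The main fit had no term for the experiment, so it did not use the pairing. It called 1285 of the 2859 rows higher with sRANKL, and limma with the experiment as a replicate block called 1475. The fit, which was tested on simulated data, served only for the share of rows called. Descriptions used Python 3.11.15, pandas 2.3.3 and numpy 2.4.6, and plots matplotlib 3.10.9. Partner dishes came from 1 pool, which is the source of the pairing, and the correlation of their deviations from group means was 0.605, 0.564 and 0.645. The 4 genes and all lists were chosen with earlier results of these data known. Named in the text were the 4 genes, the named genes of the pathway lists, with values for at most 3 per list, those with the largest differences, and the 3 nearest profiles of each gene. Named markers of the cell type lists were given by their summed intensity. The values of Il6, Tnf, Ptgs2, Tnfaip3, Nfkbia and Nfkbiz, and the range of the other NF-kB targets, were added after they were seen. The alternatives were the replicate block, the methods' t-test, limma-trend, a filter at a mean log2 of 7, median centring, quantile normalization, averaging the probe sets of a gene, and leaving out arrays or experiments. The 6 arrays limit the precision.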

Additional observations from a re-analysis of the deposited data

How the results depend on the processing

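The 4 genes kept their direction in every alternative that gave a value, but most of these could not have reversed it. The groups did not overlap, so leaving out an array could not change a sign. Each gene has 1 probe set, so averaging returned the same value. Nothing is therefore read from the kept direction. The filter at a mean log2 intensity of 7 removed Il1a, Il1r1 and Il1rl2, which are too dim for it, so they have no value there. Without 1 array in turn the log2 difference was 2.79 to 3.97 for Il1a, 2.92 to 3.14 for Il1rn, 1.28 to 1.55 for Il1r1 and 1.14 to 1.48 for Il1rl2. The highest value of Il1a came when the Experiment 1 array of M-CSF alone was left out and its partner dish was kept. Because the experiment differences of Il1rn varied so little, median centring (2.89) and quantile normalization (2.88) moved its log2 difference of 3.02 by more than its SD of 0.05. Median centring lowers every log2 difference by 0.13, and like quantile normalization it was computed over the 2890 filtered probe sets alone. Without 1 experiment in turn, Il1a minus Il1rn was 0.02 to 0.52 on the log2 scale, the lowest without Experiment 2, and after quantile normalization it was 0.17. Over all rows 2235 changed at an adjusted p under 0.05 in limma, and with the replicate block 2613 did. The count of changed rows was between 1864 and 2348 in the other settings. Among them were 2106 without both arrays of Experiment 1, an alternative added after seeing the data. The t-test in place of limma gave 1913 at an adjusted p under 0.05, and 2044 at an unadjusted p under 0.05. The filter gave 1937 of the 2469 rows it kept. The background correction was not varied, since only summarised intensities were used.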
